A study of Mus musculus with 16 samples.

Results

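The mouse genes named Zfp followed only by digits are a large share of the genes that encode zinc finger proteins, and 346 of the 37255 gene intervals in the deposited ATAC-seq table carried such a name. They were chosen by name alone and divided by position. A gene was called clustered where another Zfp gene started within 100 kb on the same chromosome, and isolated where none did. By that rule 181 genes were clustered, in 47 clusters, and 165 were isolated. Only names of Zfp plus digits counted as neighbours, so an isolated gene may still lie near other zinc finger genes. Of the isolated genes, 8 had a neighbour within 100 kb once Zfp names with letters, Zbtb, Zscan and Zkscan genes were counted too.

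ATAC-seq counts DNA fragments released where a transposase can reach the chromatin. The 16 libraries came from retinal ganglion cells, the neurons whose axons form the optic nerve, sorted by flow cytometry from eyes of female mice, with about 15000 to 50000 cells in each. The labels put 5 libraries in a naive group, listed as control, and the rest in stages of experimental autoimmune encephalomyelitis (EAE), an induced inflammatory disease of the central nervous system that can involve the optic nerve: 4 presymptomatic, 3 at onset and 4 at peak. EAE was induced at 7 to 8 weeks of age, and the same age is listed for the naive libraries. Strain, immunogen and days after induction are not given in the sources used here, and nothing in the labels ties a library to its own animal. The p-values therefore speak only of the spread among libraries, which may be technical. Nuclear reads in gene intervals ran from 1.58 M to 15.1 M per library, and mitochondrial genes took between 8.36% and 64.7% of interval reads. Zfp genes held between 0.694% and 0.889% of nuclear reads. Ganglion cell markers had a median density of 1.08 over 12 genes, Müller glia and astrocyte markers 0.968 over 6, and microglia and macrophage markers 0.512 over 6, but rod photoreceptor markers had 2.28 over 9 genes, above that of the ganglion cells the label names.

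Most Zfp genes encode proteins with tandem C2H2 zinc fingers, small folds held by a zinc ion that read DNA sequence. Many also carry a KRAB domain, which recruits TRIM28 and, through it, SETDB1 and heterochromatin proteins to silence retroelements. KRAB zinc finger genes multiplied by tandem duplication, which left arrays of similar genes along the chromosomes. Others in the family, such as Zfp462, Zfp521 and Zfp423, are developmental regulators outside such arrays, and the numbering is historical: Zfp36 encodes a CCCH-type protein that promotes mRNA decay.

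The deposited length of every Zfp gene was its span less 2000 bp, as if 1000 bp had been removed from both ends of the gene body. On that reading the transcription start itself lay outside the counted interval. Density is reads per kb of counted interval per M nuclear reads, and was given to the 342 Zfp genes with intervals of at least 500 bp. The genes' spans ran from 2192 to 456151 bp. Zfp genes lay on 20 chromosomes, with 87 on chromosome 7, of which 68 were clustered. Chromosome 17 held 28 clustered genes and chromosome 13 held 21. Clusters of 2 genes made up 23 of the 47, the largest had 15 genes, and the 8 clusters of 6 or more held 74 genes. The median distance between neighbouring starts inside clusters was 30700 bp. At the edge of the rule, 2 neighbouring pairs lay between 90 and 100 kb apart, Zfp968 with Zfp965 and Zfp771 with Zfp768 (densities 0.521 and 1.04), and 3 pairs between 100 and 110 kb, such as Zfp263 with Zfp174 (0.310 and 0.274).

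Some members are copies of each other, and the sequence before their starts shows it. The following are the 250 bases upstream of a start listed in RefSeq on GRCm38.p6, 5′ to 3′ on the gene's strand. For Zfp968 this window lies inside the gene as deposited, which starts at chr2:175372053. They are shown because 5 of these 6 genes had no read in any library. Capitals mark the bases at which Zfp968 differs from Zfp973 and Zfp965 from Zfp971, and Zfp967 matched Zfp966 at every base.
Zfp966 (chr2:175931101-175931350, minus strand): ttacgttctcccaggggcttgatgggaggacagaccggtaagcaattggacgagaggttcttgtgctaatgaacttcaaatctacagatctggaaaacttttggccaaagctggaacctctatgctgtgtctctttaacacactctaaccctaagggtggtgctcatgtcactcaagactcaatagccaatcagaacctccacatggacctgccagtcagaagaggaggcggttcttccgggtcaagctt
Zfp967 (chr2:176520754-176521003, plus strand): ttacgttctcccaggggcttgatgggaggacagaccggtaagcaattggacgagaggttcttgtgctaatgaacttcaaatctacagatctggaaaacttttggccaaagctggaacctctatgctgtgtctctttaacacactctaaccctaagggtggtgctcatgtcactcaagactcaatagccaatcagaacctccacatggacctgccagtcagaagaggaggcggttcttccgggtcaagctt
Zfp968 (chr2:175372186-175372435, plus strand): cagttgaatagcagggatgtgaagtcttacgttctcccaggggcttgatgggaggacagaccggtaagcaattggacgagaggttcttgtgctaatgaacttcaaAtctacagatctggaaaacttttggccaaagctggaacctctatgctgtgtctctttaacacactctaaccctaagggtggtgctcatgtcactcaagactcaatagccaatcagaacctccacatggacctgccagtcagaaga
Zfp973 (chr2:176670272-176670521, plus strand): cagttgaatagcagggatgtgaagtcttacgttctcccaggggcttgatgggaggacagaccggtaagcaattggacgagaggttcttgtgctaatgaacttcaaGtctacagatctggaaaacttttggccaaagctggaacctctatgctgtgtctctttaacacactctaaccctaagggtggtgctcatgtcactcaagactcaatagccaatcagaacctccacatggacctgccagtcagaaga
Zfp965 (chr2:175469775-175470024, plus strand): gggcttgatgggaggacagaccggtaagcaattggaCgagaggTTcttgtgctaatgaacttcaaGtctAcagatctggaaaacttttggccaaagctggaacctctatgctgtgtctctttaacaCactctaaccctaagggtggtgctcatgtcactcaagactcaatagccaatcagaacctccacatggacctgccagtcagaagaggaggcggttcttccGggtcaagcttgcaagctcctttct
Zfp971 (chr2:178023034-178023283, plus strand): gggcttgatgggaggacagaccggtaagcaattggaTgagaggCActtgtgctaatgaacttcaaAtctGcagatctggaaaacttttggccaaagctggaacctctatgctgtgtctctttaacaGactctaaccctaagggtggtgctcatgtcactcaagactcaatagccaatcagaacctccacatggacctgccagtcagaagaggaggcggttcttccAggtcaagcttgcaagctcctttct

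Zfp968 and Zfp973 differed at 1 base of the 250, and Zfp965 and Zfp971 at 7. Zfp965, Zfp966, Zfp967, Zfp968 and Zfp973 were at 0 reads in all 16 libraries, and of these Zfp965 and Zfp968 were clustered, while Zfp971 had a mean of 14.9 reads per library and a density of 0.262. At 3 reads over the 106.311 M nuclear reads of all libraries together, the limit on the density of the 5 genes was 0.00261 to 0.00331, for counting error only. How reads with several equally good alignments were handled is not given in the sources used here, so 0 in such a gene need not mean closed chromatin.

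Over the 286 Zfp genes with a RefSeq promoter of 300 bases (250 before the start and 50 after), 23 with a density shared at least 50% of their 31-base words with another place among the RefSeq promoters. Those 23 had a median density of 0.197, and 19 of them (82.6%) fell below the 10th percentile of nuclear genes of like length. They include the 5 genes without a read. Sharing was measured in the promoters only, not in the counted bases. The other 261 had a median density of 0.498, and 40 (15.3%) fell below that percentile. Shared promoters were about as frequent in both classes, 7.79% of clustered and 8.33% of isolated genes, against 4.81% of all RefSeq promoters.

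For contrast, the same window is shown for Zfp787, among the densest clustered genes, for Zfp503, a densely read isolated gene that encodes a repressor active in development of the striatum, and for Zfp972, the tested gene with the lowest density among those with a counted interval of at least 2000 bp. Capitals mark CpG dinucleotides, the sites of DNA methylation, which number 22, 13 and 4. The window of Zfp972 holds stretches identical to parts of the Zfp966 window shown above. How multiply aligned reads were handled is not known, so the low density of Zfp972 need not mean closed chromatin either. Genes picked for their densities cannot show whether density follows CpG content.
Zfp787 (chr7:6155966-6156215, minus strand): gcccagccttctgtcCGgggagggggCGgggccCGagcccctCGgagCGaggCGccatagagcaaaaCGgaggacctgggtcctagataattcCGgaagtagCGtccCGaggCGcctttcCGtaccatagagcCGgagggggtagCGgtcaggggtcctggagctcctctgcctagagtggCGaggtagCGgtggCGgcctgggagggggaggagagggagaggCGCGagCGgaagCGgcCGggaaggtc
Zfp503 (chr14:21989602-21989851, minus strand): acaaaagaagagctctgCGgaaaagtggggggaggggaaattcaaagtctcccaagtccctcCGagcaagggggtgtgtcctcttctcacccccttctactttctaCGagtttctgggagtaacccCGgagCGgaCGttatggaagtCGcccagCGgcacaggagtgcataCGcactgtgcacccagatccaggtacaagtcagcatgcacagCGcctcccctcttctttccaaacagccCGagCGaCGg
Zfp972 (chr2:177925651-177925900, minus strand): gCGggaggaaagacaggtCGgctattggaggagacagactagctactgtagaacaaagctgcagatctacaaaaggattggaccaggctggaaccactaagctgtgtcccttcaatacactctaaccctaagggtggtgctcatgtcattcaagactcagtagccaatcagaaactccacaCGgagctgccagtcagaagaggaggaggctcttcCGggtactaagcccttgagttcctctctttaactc

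Clustered Zfp genes were read less densely than isolated ones, and both classes less densely than genes at large. The median density was 0.425 (quartiles 0.326 and 0.696) for 180 clustered genes, 0.557 (0.385 and 0.892) for 162 isolated genes and 0.626 for all nuclear genes. Ranked within 20 bins of interval length, the median clustered gene stood at the 25.8th percentile and the median isolated gene at the 41.4th. Of the clustered genes 40 (22.2%) were below the 10th percentile and 17 (9.44%) above the 90th. Among isolated genes these counts were 27 (16.7%) and 25 (15.4%). These are descriptions over genes, which are not replicates. The isolated median was under that of all nuclear genes in 14 of 16 libraries, the exceptions being naive replicate 2 and onset replicate 1, and the clustered median in all 16.

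**Figure D1:**
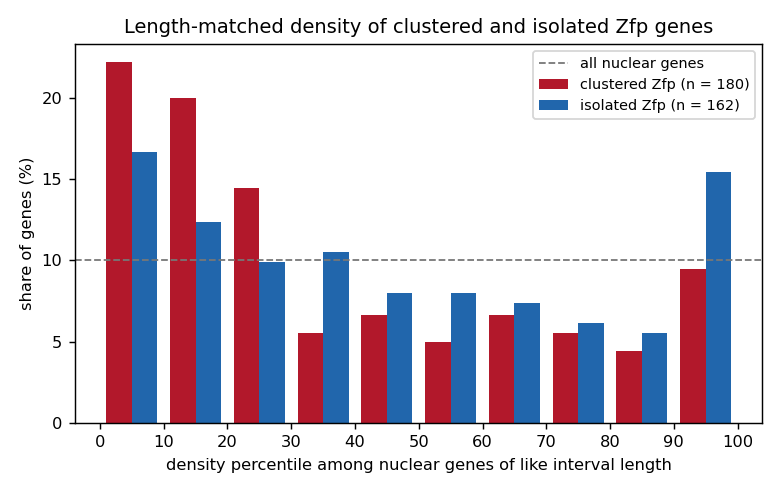
Share of clustered and isolated Zfp genes (y axis, percent of the class) by length-matched density percentile among all nuclear genes (x axis, 10-point bins), with a dashed line at 10%, the share of all nuclear genes in a bin. The lowest bin holds 22.2% of clustered and 16.7% of isolated genes.

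The order of the classes was seen in nearly every library. In the naive libraries the clustered median was 0.458, 0.443, 0.354, 0.416 and 0.355, against isolated medians of 0.592, 0.604, 0.474, 0.574 and 0.487. The presymptomatic libraries had clustered medians of 0.452, 0.459, 0.348 and 0.468, and isolated medians of 0.582, 0.571, 0.477 and 0.457. At onset the clustered medians were 0.390, 0.340 and 0.552 and the isolated ones 0.566, 0.480 and 0.706. Each library was compared with itself, and the clustered median was the lower in 15 of 16. The exception was presymptomatic replicate 4, with 2.23 M nuclear reads and 13.5 reads in its median clustered gene. Peak replicate 4 was shallower, at 1.58 M and 10 reads, and had the clustered median lower by a log2 ratio of −0.17. At peak the clustered medians were 0.549, 0.376, 0.425 and 0.503 beside isolated medians of 0.693, 0.547, 0.494 and 0.564.

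The log2 ratio of the clustered to the isolated median was −0.37 ± 0.15 (SD, n = 16). By stage it was −0.43 ± 0.04 in naive libraries (n = 5), −0.28 ± 0.21 presymptomatically (n = 4), −0.46 ± 0.10 at onset (n = 3) and −0.32 ± 0.17 at peak (n = 4). The ranges of every stage overlapped that of the naive libraries, so no stage stood apart in this ratio. Dividing pooled reads by pooled length in place of taking medians gave −0.30 ± 0.10, negative in 16 of 16 libraries. The mean over genes of log2 (density + 0.1) gave −0.20 ± 0.09, also negative in 16 of 16, and clusters drawn within 200 kb gave −0.55 ± 0.14.

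**Figure D2:**
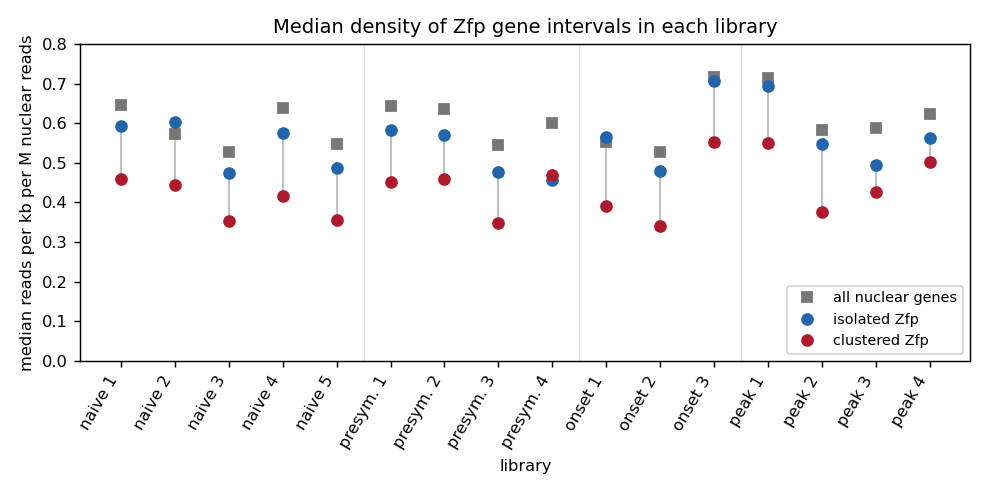
Median density of clustered, isolated and all nuclear genes (y axis, reads per kb per M nuclear reads) in each of the 16 libraries, ordered by stage along the x axis. The clustered median is below the isolated one in 15 libraries, all but presymptomatic replicate 4.

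Interval length differed between the classes, with medians of 12813 bp for clustered and 18175 bp for isolated genes. Within each of 4 bands of interval length with like numbers of Zfp genes the clustered median was still the lower: 0.459 against 0.519 in the shortest band, 0.391 against 0.495 in the next, then 0.431 against 0.513, and 0.403 against 0.623 in the longest. Of the 13 chromosomes that held both classes, 11 had the lower median in the clustered genes. Cluster size gave no steady order. Pairs had a median density of 0.444, clusters of 3 to 5 genes 0.391, clusters of 6 to 10 genes 0.487 and larger ones 0.418.

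Promoter composition also differed between the classes. Clustered genes had a median of 12 CpG in the 300-base promoter, isolated genes 16 and all RefSeq promoters 7. At least 15 CpG were present in 42.2% of clustered, 56.1% of isolated and 35.2% of all promoters. Among genes with 15 or more CpG, a division chosen after the densities were seen, the log2 ratio of clustered (64 genes) to isolated (73 genes) was −0.49 ± 0.15, negative in 16 of 16 libraries. Below 15 CpG, with 89 and 58 genes, it was 0.13 ± 0.21, and the clustered median was the lower in only 4 of 16 libraries. Isolated genes had a median density of 0.600 with 15 or more CpG and 0.415 with fewer, whereas clustered genes stood at 0.439 and 0.422. The part of CpG content in the class difference was not tested.

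Zfp574 and Zfp446 were the densest members by a wide margin, 1 isolated and the other clustered, both on chromosome 7. Zfp574 (deposited position chr7:25075679-25083492) had naive densities of 23.1, 30.9, 18.4, 11.7 and 48.4, presymptomatic densities of 32.7, 22.1, 34.1 and 17.4, onset densities of 33.8, 33.2 and 27.1, and peak densities of 14.8, 22.3, 11.4 and 38.3. Zfp446 (chr7:12976398-12985717) had 22.1, 27.1, 19.1, 12.5 and 44.7 in the naive libraries, 36.7, 26.1, 33.4 and 18.3 in the presymptomatic, 32.3, 34.5 and 18.8 at onset, and 13.2, 25.3, 14.3 and 29.5 at peak. Both were highest in naive replicate 5, and in each gene the stages overlapped. Their means were 26.2 ± 10.4 and 25.5 ± 9.29 (SD, n = 16).

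The other isolated leaders were Zfp503 at 13.3 ± 3.77, Zfp526 at 5.88, Zfp219 at 5.72 and Zfp703 at 4.94. Zfp526 and Zfp219 each overlap another gene, as 80 of the 346 do, so their reads cannot be given to a single gene. Among clustered genes Zfp61 and Zfp235 both stood at 6.21, Zfp93 at 5.37 and Zfp787 at 4.73, where Zfp61 overlaps Zfp94 and Zfp787 overlaps Gm36371. The lowest tested genes were Zfp972 (0.0707), Zfp534 (0.0937) and Zfp970 (0.127) among the isolated, and Zfp442 (0.159), Zfp345 (0.197) and Zfp81 (0.197) among the clustered.

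The 5 largest clusters differed in level and held wide ranges within them. The 15 genes from Zfp84 to Zfp146 on chromosome 7 (chr7:29768552-30169779) had a median density of 0.418, from 0.282 for Zfp940 to 1.32 for Zfp790. This cluster includes Zfp568, a KRAB repressor of placental Igf2 transcription, at 1.10. The 14 genes from Zfp712 to Zfp748 (chr13:67038594-67553152) had a median of 0.424 and ran from 0.317 for Zfp458 to 2.48 for Zfp759. The cluster of 10 from Zfp180 to Zfp94 (chr7:24081897-24320259) had the highest median of the 5, 0.825, and holds Zfp61, Zfp93 and Zfp235. Its lowest gene, Zfp114, was at 0.373. A cluster of 8 on chromosome 6 (chr6:47819263-48086694) had a median of 0.595, with Zfp783 the highest at 3.60, and one of 8 on chromosome 17 (chr17:32765496-33110705) had 0.329, with no gene above 0.580. Coordinates are as deposited, with 1 added to the start, and the build of the table is not given in the sources used here. Of the 345 Zfp genes matched to RefSeq, 215 starts were the same as on GRCm38.p6.

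**Figure D3:**
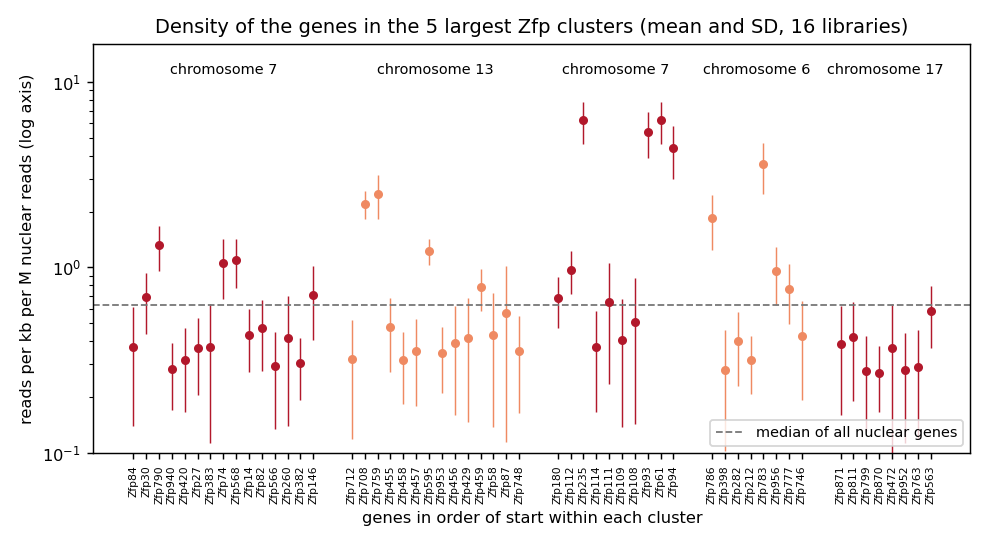
Density of each Zfp gene (y axis, log scale, reads per kb per M nuclear reads, mean and SD over 16 libraries) in the 5 largest clusters, in the order of the genes along each cluster, with a dashed line at the median of all nuclear genes, 0.626. Most genes lie under the line, and the cluster with Zfp61, Zfp93 and Zfp235 holds genes up to 6.21.

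Several members with known roles in neural development lay above the family's median density of 0.482. Zfp365, whose product binds DISC1, had a density of 2.27, Zfp462, a chromatin regulator of development, 1.68, and Zfp536, a repressor of neuronal differentiation, 1.59. Zfp423 and Zfp521, cofactors of EBF transcription factors, stood at 1.30 and 1.13. These 5 genes were isolated. Zfp57, which maintains imprints, had 1.11 and Zfp42, the pluripotency marker Rex1, 0.973. Zfp809, a clustered gene whose product silences retroviral DNA, stood at 0.401. Of the other listed members, Zfp281, Zfp292 and Zfp335 had 0.860, 0.815 and 0.611, while Zfp148 and Zfp68 had 0.552 and 0.385. Zfp36, with a counted interval of 445 bp, had too few reads to be tested, and no gene under the name Zfp238 was among the 346.

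Other C2H2 families named by prefix served as a scale. Klf genes, at a median density of 1.22 over 17 genes, and Zbtb genes, at 0.698 over 35, were above both Zfp classes. Zscan and Zkscan genes, at 0.459 and 0.462 over 11 each, lay between clustered and isolated Zfp genes. The 1076 olfactory receptor genes, another family in tandem arrays, had 0.752, and the 316 vomeronasal receptor genes of the Vmn1r and Vmn2r families, likewise in arrays, had 0.540. Below the 10th length-matched percentile lay 3.62% of the olfactory and 26.6% of the vomeronasal receptor genes, beside 22.2% of clustered Zfp genes. Median intervals were 1058 and 1100 bp, and for genes shorter than 2000 bp the deposited length is 2000 bp less the span. The counted bases of such short genes may take in the start, which the Zfp intervals appear to leave out. Receptor densities and percentiles are therefore not like for like with the Zfp values.

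Comparisons between stages asked whether any Zfp interval gained or lost reads during EAE. Counts were tested with edgeR's quasi-likelihood test, scaled by TMM factors, with Benjamini-Hochberg adjustment over the 29902 genes with enough reads, of which 325 were Zfp genes (171 clustered and 154 isolated). The other 21 Zfp genes had too few reads. No Zfp gene passed an adjusted p of 0.05 at any stage against naive, and by edgeR no other gene did either (0% of those tested). A joint test over the 3 disease stages had 9 Zfp genes at an unadjusted p under 0.05, beside 3.16% of all genes, and 0 after adjustment. The 3 comparisons share the naive libraries. On simulated counts the same test recovered 6.12% to 10.4% of log2 changes of 1, among changed genes that passed the read filter. An outcome of 0 calls therefore does not show that levels were unchanged.

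In the presymptomatic comparison, the median log2 fold change was 0.00 for clustered genes, −0.05 for isolated genes and −0.06 for all genes tested. At onset the medians were 0.04, 0.04 and −0.01, and at peak 0.02, −0.05 and −0.03. Of the 171 clustered genes 87, 88 and 92 had the higher value at the presymptomatic, onset and peak stages, and of the 154 isolated genes 62, 82 and 64. The class medians had an SD between libraries of 0.12 (clustered) and 0.07 (isolated), so the shifts were smaller than that spread. Without onset replicate 3, whose label number is 17 and out of stage order, the clustered median at onset was −0.13. Mitochondrial genes took 8.36% of the interval reads of onset replicate 3, against 34.4% to 64.7% in the other libraries. Its TMM factor was 2.02, where the next largest was 1.32. Without peak replicate 2 the clustered median at peak was 0.14. The rod markers moved at onset, with a median log2 difference of 1.04 and 9 of 9 tested genes higher. Their summed level was 188 to 424 CPM (counts per M reads after scaling) at onset, 91.8 to 193 in naive libraries, 93.3 to 176 presymptomatically and 87.2 to 210 at peak. The sum for ganglion cell markers was 344 to 391 at onset and 353 to 452 in naive libraries. More rods in a sort and more open rod chromatin cannot be told apart in bulk libraries, and the part of rod DNA in Zfp values at onset was not tested. Spread between libraries was wider for the clustered genes, with a median coefficient of biological variation of 0.424 against 0.348 for isolated and 0.377 for all genes, and their median mean count was lower, 36.2 reads against 66.6.

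**Figure D4:**
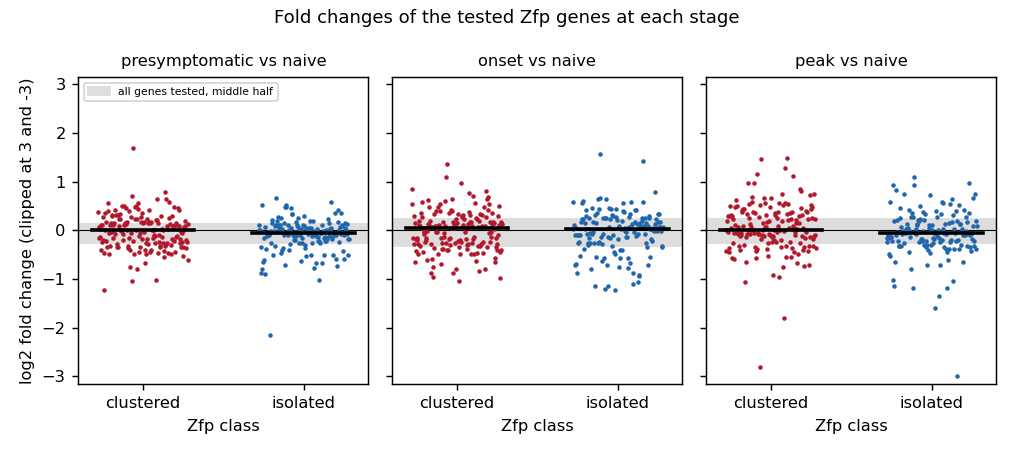
Log2 fold change against naive (y axis, limited to ±3, beyond which points are drawn at the edge) of each tested Zfp gene at the 3 disease stages, with clustered and isolated genes side by side. The points of both classes spread about 0, with medians between −0.05 and 0.04.

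At the presymptomatic stage 5 of the 325 Zfp genes had an unadjusted p under 0.05, beside 1.16% of all genes tested. All 5 were isolated and lower than naive (0.813% of all genes were lower at this p): Zfp106, Zfp422, Zfp850, Zfp362 and Zfp395. DESeq2 called 0 Zfp genes after adjustment and had 6 at an unadjusted p under 0.05, beside 1.73% of all genes. With voom there were 17, beside 5.44%, scaled by total counts 0, beside 1.25%. Zfp850 had naive values of 6.84, 3.81, 3.91, 5.27 and 4.97 CPM and presymptomatic values of 3.40, 3.05, 2.45 and 2.56 CPM. Every presymptomatic value was under every naive one. Onset replicates 1 and 2 were as low, at 2.64 and 2.38 CPM, and the peak libraries were at 6.22 to 8.55 CPM. At the presymptomatic stage the log2 fold change was −0.77 ± 0.34 (SE), with an edgeR adjusted p of 1.00. Zfp106, whose product binds RNA and is needed for motor neuron upkeep, had 14.5, 13.5, 12.9, 7.59 and 23.2 CPM in naive libraries and 9.24, 9.06, 9.66 and 6.29 CPM presymptomatically. Here the groups overlapped through naive replicate 4, and the log2 difference was −0.73 ± 0.29. In Zfp422 the 4 presymptomatic libraries together had 12 reads against 83 in the naive ones. Groups did not overlap for 4 Zfp genes, all lower (Zfp422, Zfp850, Zfp715 and Zfp207), beside 0.482% of all genes lower, and for no Zfp gene higher, beside 0.365%. The smallest p among higher genes belonged to Zfp60, Zfp553 and Zfp273, with log2 differences of 0.56, 1.69 and 0.79.

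At onset 11 Zfp genes had an unadjusted p under 0.05, 5 higher (1.57% of all genes) and 6 lower (3.38% of all genes), beside 4.95% of all genes in either direction, so the 11 of 325, 3.38%, were under the background. DESeq2 also had 11, beside 6.13% of all genes, and called 0 after adjustment. Scaled by total counts, 56 Zfp genes (17.2%) had such a p, beside 17.2% of all genes, and with voom 21 did (6.46%), beside 5.68%. Zfp939, a clustered gene, had naive values of 9.72, 9.57, 19.5, 15.8 and 8.04 CPM and onset values of 5.52, 6.41 and 6.91 CPM. All onset values were the lower, presymptomatic libraries reached 14.3 CPM and the peak libraries spread from 4.68 to 15.7 CPM. Its log2 fold change at onset was −0.99 ± 0.37, with an edgeR adjusted p of 0.972. Zfp503 had naive values of 21.6, 23.6, 18.5, 18.6 and 35.7 CPM and onset values of 39.1, 33.0 and 33.1 CPM. Naive replicate 5 lay inside the onset range, and the difference was 0.57 ± 0.25 on the log2 scale. Zfp40 and Zfp600 were at −1.14 each, where the promoter of Zfp600 shared 94.4% of its words with other promoters, and Zfp938 and Zfp420 at 1.58 and 1.10. Groups did not overlap for 3 Zfp genes higher (Zfp661, Zfp688 and Zfp692), beside 1.6% of all genes, and for 6 lower (Zfp939, Zfp369, Zfp160, Zfp945, Zfp40 and Zfp275), beside 0.936%.

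At peak 12 Zfp genes had an unadjusted p under 0.05, 6 higher (1.8% of all genes) and 6 lower (1.81%). Together they made up 3.69%, beside 3.61% of all genes, and so were close to the background. DESeq2 had 16, beside 4.59% of all genes, and called 0 Zfp genes after adjustment, where it called 1 gene of all (0.00334%). Zfp263, an isolated gene, had 6, 14, 6, 12 and 7 reads in the naive libraries, 18, 10, 4 and 4 presymptomatically, 30, 21 and 24 at onset, and 0 in all 4 peak libraries. The naive libraries held 45 reads of this gene in all, and the 95% counting interval of the ratio of peak to naive reached up to 0.268. A floor of 3 reads over the 4 peak libraries, with the 45 naive reads taken as exact, put the level 4.78-fold lower. That is a larger fall than the interval assures. Both figures cover counting error only, not the spread between libraries. The edgeR adjusted p was 1.00. Zfp689, a clustered gene that overlaps B130055M24Rik, had 6, 44, 21, 9 and 16 naive reads and 2, 2, 0 and 0 reads at peak, a ratio of 0.131 (95% interval 0.0349 to 0.346, counting error only).

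Zfp429, in the cluster on chromosome 13, was at 0.962, 1.17, 2.14, 1.69 and 0.867 CPM in naive libraries and at 4.11, 3.71, 2.89 and 2.49 CPM at peak. Each peak value was above every naive one, with a log2 difference of 1.28 ± 0.52. Presymptomatic replicate 2, at 2.97 CPM, lay inside the peak range. Zfp942 and Zfp273 were higher by 0.97 and 1.12 on the log2 scale and Zfp69 lower at −0.70. Groups did not overlap for 2 Zfp genes higher (Zfp62 and Zfp429), beside 0.502% of all genes, and for 2 lower (Zfp689 and Zfp263), beside 0.475%.

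**Figure D5:**
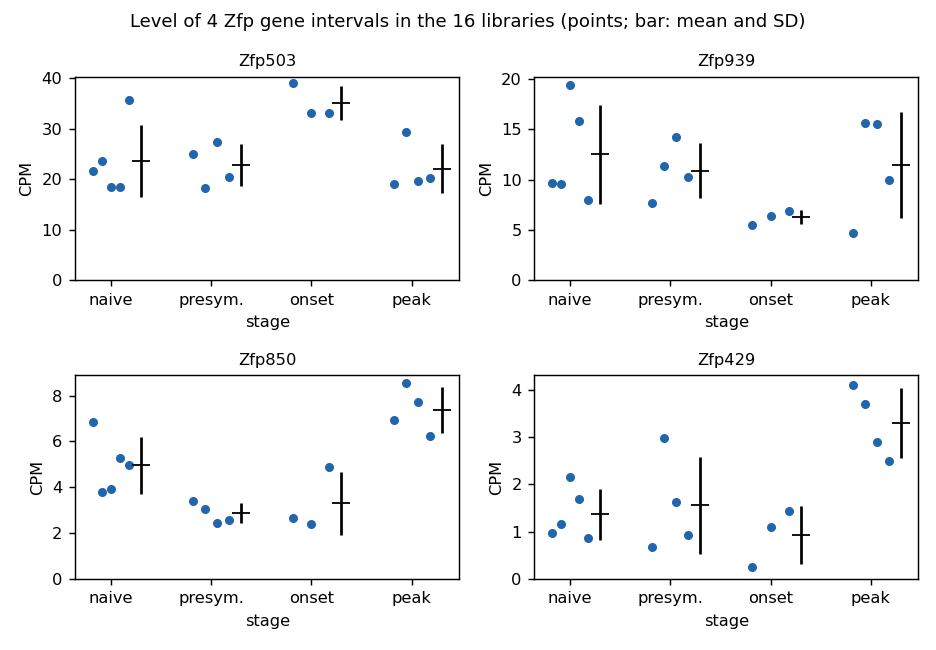
CPM (y axis) of Zfp503, Zfp939, Zfp850 and Zfp429 in each library by stage (x axis). Zfp850 is low at the presymptomatic stage, at 2.45 to 3.40 CPM, and in 2 onset libraries, Zfp939 at onset, at 5.52 to 6.91 CPM, while Zfp503 is high at onset and Zfp429 at peak, and none passed adjustment.

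Between disease stages, 12 Zfp genes at onset against presymptomatic (4.13% of all genes), 8 at peak against presymptomatic (3.41%) and 19 at peak against onset (6.65%) had an unadjusted p under 0.05 by edgeR, and none passed after adjustment. Zfp263 had the smallest p at peak against onset, with an edgeR adjusted p of 0.458 and a DESeq2 adjusted p of 0.0400. It was 1 of 5 genes that DESeq2 called in that comparison (0.0167% of all genes), and the single Zfp call by any tool used. Scaled by total counts, 59 Zfp genes had an unadjusted p under 0.05 at peak against onset, beside 15.8% of all genes, and with voom 41 did at onset against presymptomatic, beside 13.4%, with 0 Zfp genes called in either.

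The co-repressor genes through which KRAB proteins act were set beside them from a list of 26 names, 25 of which were found and tested. None passed adjustment at any stage by edgeR, and unadjusted p was under 0.05 for 0 at the presymptomatic stage (1.16% of all genes), 1 of 25 at onset (4.95%) and 0 at peak (3.61%), so the share at onset, 4%, was no higher than that of all genes. That gene was Suv39h2, a histone H3K9 methyltransferase, with a log2 difference of 1.11 ± 0.43 at onset. Trim28, the scaffold bound by the KRAB domain, was at −0.01 ± 0.40, 0.36 ± 0.42 and 0.35 ± 0.41 at the 3 stages. Setdb1, its methyltransferase partner, was at −0.19 ± 0.41, 0.35 ± 0.43 and 0.23 ± 0.41. Of the 25 genes 12, 14 and 16 were higher, with medians of −0.01, 0.15 and 0.09, and their median density, 0.507, lay between those of clustered and isolated Zfp genes.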

How the data were processed

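ATAC-seq reads of 16 libraries were available as counts per gene interval. The authors' deposited counts are whole numbers with no scaling applied. Their deposited RPKM equals the count over a total for the library and over a length of the gene span less 2000 bp, as if 1000 bp had been taken off each end. Cutadapt, HISAT2 and HTSeq are the tools listed in the submitters' processing notes. The build, and what was done with duplicates, multiply aligned reads and transposase offsets, are not given in the sources used here.

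Both the members and the gene lists were chosen with earlier results of these data known. Density was computed from counts for intervals of at least 500 bp, and is compared within libraries. Stages were compared with edgeR 4.0.16 in R 4.3.3 (TMM, filterByExpr with a minimum count of 10 and a minimum total of 15, 1 mean per stage over all 16 libraries, Benjamini-Hochberg adjustment over 29902 genes). The steps were tested on simulated data, with 100 of the tested genes changed by each size in each comparison with naive. Of log2 changes of 1, 9.28% were recovered at the presymptomatic stage, 10.4% at onset and 6.12% at peak. Of log2 changes of 2, 64.3%, 68.7% and 61.5% were recovered. These shares are over the changed genes that passed the read filter again in the simulated counts. False calls numbered 2, 2 and 1 at the presymptomatic, onset and peak stages. DESeq2 1.42.0 and voom (limma 3.58.1) served as alternatives, with other scalings, filters, cluster distances, and each library left out. Promoters of 300 bases came from RefSeq GRCm38.p6. Single genes were named by smallest p (3 per direction and comparison), by highest and lowest density in each class, and from a list of known members. Genes whose groups did not overlap, and those with p under 0.05 beyond these, were named after their values were seen. Zinc finger and KRAB domain counts were planned but not run, since no protein sequences were used here. Replicate numbers were not treated as pairs.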

Additional observations from a re-analysis of the deposited data

Results flagged for a closer look

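In 107 groups of 4 or 5 libraries, Dixon's test at the 95% level picked out 7 single values. Chance alone picks about 1 in 20 groups. The onset stage, with 3 libraries, was not examined in this way. In the naive group, Zfp263 stood at 1.27 CPM in replicate 4 against 0.460 to 0.641 in the others, Zfp553 at 0.549 CPM in replicate 2 against 0 to 0.158, and Zfp942 at 5.29 CPM in replicate 3 against 1.92 to 2.46. Naive replicate 5 was high for 2 of the lowest clustered genes, with a density of 0.235 for Zfp442 (others 0.106 to 0.129) and 0.295 for Zfp81 (others 0.110 to 0.154). Presymptomatic replicate 3 had a clustered median density of 0.348, where the other presymptomatic libraries had 0.452 to 0.468. Zfp503 was at 29.4 CPM in peak replicate 2 and at 19.1 to 20.2 CPM in the other peak libraries.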

How the results depend on the processing

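No Zfp gene was called in any of the 7 stage tests under 9 planned settings or with any library left out, except Zfp263 at peak against onset, where DESeq2 called 1 of the 5 genes it called in all (0.0167% of genes). The replicate block left 0 Zfp calls in every test, with 1, 15 and 5 Zfp genes at an unadjusted p under 0.05 at the presymptomatic, onset and peak stages (0.943%, 6.20% and 2.62% of all genes). Same-numbered libraries of different stages correlated between −0.342 and 0.373 over 21 pairs (median −0.006), with 6 pairs above 0.1. The median for libraries of other numbers was 0.013. Such correlations cannot exclude that some same-numbered libraries belong together. Scaling by total counts moved the clustered and isolated medians to 0.31 and 0.25 at the presymptomatic stage and to 0.60 and 0.63 at onset, where the median of all genes moved to 0.26 and 0.60. Without presymptomatic replicate 4 and onset replicate 3, whose label numbers 16 and 17 are out of stage order, the clustered median at onset was −0.10. With each library left out in turn it ran from −0.13 to 0.048 at onset, from −0.03 to 0.05 presymptomatically and from −0.073 to 0.14 at peak. For the density difference (log2 −0.37), leaving out libraries gave −0.40 to −0.36, clusters within 200 kb gave −0.55, and a mean of log2 (density + 0.1) gave −0.20. Divisions by promoter CpG, added after the data were seen, gave 0.13 under 15 CpG, 0.0091 under 10, −0.026 under 20 and −0.57 at 20 or more. The cause of these shifts was not tested. Length-matched percentiles stayed at 23.9 to 27.3 (clustered) and 39.9 to 45.1 (isolated). The KRAB division was not run. Depth limits single genes: the median clustered gene had a mean of 36.2 reads per library, and peak replicate 4 had 1.58 M nuclear reads.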
